A study of Mus musculus with 4 samples.

Results

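The genes described here are 8 oxidative stress and metallothionein genes: *Mt1*, *Mt2*, *Prdx1*, *Txnrd1*, *Srxn1*, *Gclm*, *Sqstm1* and *Slc7a11*. They were taken by symbol, and all 8 are listed in each of the 4 libraries, out of 21739 gene symbols listed in all. Their levels were followed in 4 populations of wound immune cells (macrophages, monocytes, neutrophils and lymphoid cells), which were set apart by marker genes that include none of the 8.

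The study treated punch wounds in the skin of C57/BL6j mice, 6 weeks old, with hucMSC-Exo, the exosomes (small vesicles) that human mesenchymal stem cells of the umbilical cord release in culture, and asked how the immune cells of the wound respond. Mice of the hucMSC-Exo group were injected under the skin at the wound edge with 100 µg of exosomes every 48 h, Control mice received PBS in the same volume, and skin next to the wound was taken on day 7 for droplet single-cell RNA sequencing. There were 2 Control and 2 hucMSC-Exo libraries, each from 1 mouse, called Control 1, Control 2, hucMSC-Exo 1 and hucMSC-Exo 2 below, and values of the 4 libraries are given in this order. No group received vesicles from another source.

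The deposited matrices hold fewer cells than the study states for these mice. The study describes separating immune cells by *Ptprc* computationally, but whether the matrices hold that part is not given in the sources used here. The 4 libraries held 7178 cells, of which 6443 were kept and 5392 fell into the 4 gates. The kept cells numbered 952, 2074, 1416 and 2001, with 4779405 to 11243740 unique molecular identifiers (UMIs, each standing for 1 captured RNA molecule) per library, and 6 cell barcodes were shared over the 6 pairs of libraries. The macrophage gate held 143 to 403 cells per library, the monocyte gate 72 to 212, the neutrophil gate 51 to 544 and the lymphoid gate 558 to 775. The median UMIs per cell were 1896 to 2194 in neutrophils and 3398 to 8079 in the other gates. The labels name sections of the gut as tissue but skin as cell type, and the groups were taken from the titles alone. Letters in the matrix names disagree with the titles and would place Control 1 with hucMSC-Exo 1 and Control 2 with hucMSC-Exo 2. The neutrophil gate, at 51, 346, 93 and 544 cells, was more alike within those pairs than within the titled groups. Which grouping holds was not tested. Every comparison between hucMSC-Exo and Control below rests on the titles and carries this doubt. Of 7 skin genes (keratins, collagens and *Dcn*), all 7 had UMIs in each library, at 834 to 1092 CPM (counts scaled to the same total, 1000000 UMIs) in sum, and the gut epithelium genes *Vil1*, *Fabp2*, *Cdx1*, *Cdx2* and *Muc2* had 0 to 2 UMIs in sum per library. The other 2 genes of the gut list, which skin epithelium also makes, had more: *Epcam* had 83 to 232 UMIs and *Lgr5* 1 to 9. The gates held their own markers: the complement gene *C1qa* stood at 2428 CPM in macrophages against at most 128 elsewhere, as means of 4 libraries, and the 10 neutrophil markers summed to 60974 to 124142 CPM in neutrophils against 45.9 to 644 in the other gates. The skin list was highest in the neutrophil gate, at 1720 to 2507 CPM, against 548 to 1174 in the other gates.

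Control 1 stood apart. A list of 12 immediate early and dissociation genes (*Fos*, *Jun*, *Hspa1a* and others, known to rise while tissue is digested) was highest in Control 1 in all 4 gates. In macrophages it summed to 11669, 6198, 4534 and 7989 CPM, and in monocytes to 9571, 3637, 3438 and 6180 CPM. In neutrophils the sums were 11310, 4392, 4450 and 5523 CPM, and in lymphoid cells 9899, 5241, 6668 and 8328 CPM. The members' log2 differences between the groups are therefore given with and without Control 1. The part of this list in them was not tested.

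Cells meet reactive oxygen with a shared set of enzymes, many of which are switched on by the transcription factor NRF2. The adaptor KEAP1 marks NRF2 for destruction, and oxidants or reactive chemicals acting on KEAP1 let NRF2 reach antioxidant response elements (AREs) near its targets, among them *Prdx1*, *Txnrd1*, *Srxn1*, *Gclm*, *Sqstm1* and *Slc7a11*. Metallothioneins are small cysteine-rich proteins that bind zinc and copper, and their genes respond above all to the zinc-sensing factor MTF1 at metal response elements (MREs), and also to glucocorticoids and oxidants. In a healing wound, neutrophils and macrophages make oxidants to kill microbes and must withstand them.

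The promoters of the members were read first, because the 2 families are known for different elements. The letters searched were TGACNNNGC for the ARE, TGCACNC or TGCGCNC for the MRE, and TGACTCA, the site bound by AP-1 (*Fos* and *Jun*) and by NRF2 partners, which was added after the sequences had been read and which overlaps an ARE in *Mt2* and *Prdx1*. Both strands of the 250 bases before each RefSeq start were searched, in all 32851 promoter windows of the mouse table. All 8 members were matched, through 10 windows. An ARE lay in 10.2% of all windows and in windows of 4 of the 8 members (*Mt2*, *Prdx1*, *Gclm* and 1 of 3 windows of *Txnrd1*). TGACTCA lay in 4.46% of all windows and in those of *Mt2*, *Prdx1* and *Srxn1*, and *Prdx1* and *Srxn1* held 2 copies each, which 0.167% of all windows did. An MRE lay in 21.4% of all windows and in those of *Mt1*, *Mt2*, *Srxn1* and *Gclm*. *Mt2* held 3 MREs and *Gclm* 2, and 5.17% of all windows held 2 or more. These letters were not found in the windows of *Sqstm1* and *Slc7a11*, which says no more than that. A match is a description of the letters and not a bound site.

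The 5 windows below carry most of these matches (RefSeq sequences, build GRCm38.p6, plus strand, 5′ to 3′). In the first pair, of the neighbouring metallothionein genes, capitals mark MREs. In the other 3, capitals mark an ARE or TGACTCA, on either strand. Each window stops before the most upstream annotated start. The bases between the several annotated starts of a gene, as in *Mt1* and *Mt2*, are therefore not covered. For these 5 genes the bases past the RefSeq start were not searched, so that the counts of matches hold for the windows only.
Mt1 chr8:94178839-94179081: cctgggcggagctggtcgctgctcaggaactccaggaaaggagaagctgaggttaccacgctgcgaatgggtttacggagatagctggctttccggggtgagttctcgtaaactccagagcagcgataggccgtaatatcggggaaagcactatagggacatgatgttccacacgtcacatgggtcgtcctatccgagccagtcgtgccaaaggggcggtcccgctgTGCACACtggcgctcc
Mt2 chr8:94172368-94172617: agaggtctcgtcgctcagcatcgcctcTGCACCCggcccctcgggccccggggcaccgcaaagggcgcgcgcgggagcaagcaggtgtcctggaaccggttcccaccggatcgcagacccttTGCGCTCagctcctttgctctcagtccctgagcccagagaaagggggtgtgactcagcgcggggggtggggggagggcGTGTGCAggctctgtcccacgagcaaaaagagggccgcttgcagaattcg
Prdx1 chr4:116685349-116685543: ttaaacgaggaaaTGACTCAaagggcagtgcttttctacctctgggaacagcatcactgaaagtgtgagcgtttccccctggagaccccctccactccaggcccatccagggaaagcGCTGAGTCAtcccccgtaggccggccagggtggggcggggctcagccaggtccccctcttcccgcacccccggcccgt
Srxn1 chr2:152105274-152105515: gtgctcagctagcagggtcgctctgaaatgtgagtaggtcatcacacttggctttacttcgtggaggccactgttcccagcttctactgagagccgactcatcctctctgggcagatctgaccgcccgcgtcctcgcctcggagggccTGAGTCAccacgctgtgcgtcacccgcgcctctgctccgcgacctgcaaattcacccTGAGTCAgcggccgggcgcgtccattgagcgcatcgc
Gclm chr3:122245307-122245556: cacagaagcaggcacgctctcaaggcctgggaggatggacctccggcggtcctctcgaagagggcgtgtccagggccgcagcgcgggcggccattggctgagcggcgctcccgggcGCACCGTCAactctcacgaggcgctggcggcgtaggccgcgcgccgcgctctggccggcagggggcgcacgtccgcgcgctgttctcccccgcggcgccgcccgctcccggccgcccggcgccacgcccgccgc

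Counted from the RefSeq start, the MREs in the window of *Mt2* began at -223, -128 and -50, its ARE at -79, and the only MRE in the window of *Mt1* at -23. The TGACTCA copies of *Srxn1* began at -102 and -45, those of *Prdx1* at -237 and -131, the second lying inside an ARE that began at -133. The ARE of *Gclm* began at -134 and overlaps the first of its MREs, at -138 and -72, and the MRE of *Srxn1* began at -19.

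On GRCm38 the genes lie apart except for the metallothioneins. *Mt2* (chr8:94172664-94173568) and *Mt1* (chr8:94179082-94180327) stand on the plus strand with 5513 bases between them. Their transcripts share at most 20 bases in a row, so that longer reads can be told apart. *Prdx1* is at chr4:116685544-116700822, *Txnrd1* at chr10:82833951-82897712, *Srxn1* at chr2:152105516-152111376 and *Gclm* at chr3:122245557-122270732, all on the plus strand. *Sqstm1* (chr11:50199366-50210827) and *Slc7a11* (chr3:49892526-50443614) are on the minus strand. All 8 are annotated as protein-coding.

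The first comparison asked where in the wound these genes are used. Against lymphoid cells, macrophages held more of all 8, monocytes more of 7 and neutrophils more of 7, and the size ran from 0.68 on the log2 scale (*Mt2*, macrophages) to 9.91 (*Slc7a11*, neutrophils). CPM values scale a gene's UMIs to all UMIs of a gate in a library, and are compared between gates and libraries but not between genes. A CPM over a gate does not tell many weakly expressing cells from few strong ones, so shares of cells follow. The test was edgeR's quasi-likelihood test on UMIs summed per library and gate, with the library as a block and adjusted p-values (Benjamini-Hochberg) over 9047 genes. Log2 differences are given ± the standard error (SE). They carry edgeR's own scaling between sums (TMM), which the CPM values do not, so that the 2 measures can differ in size or sign. By the study methods each library is 1 mouse. With the library as a block, the p-values rest on how differences between gates vary among the 4 mice. The estimate of that spread is shared by the 4 gates, and the level of a mouse as a whole does not enter it.

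**Figure D1:**
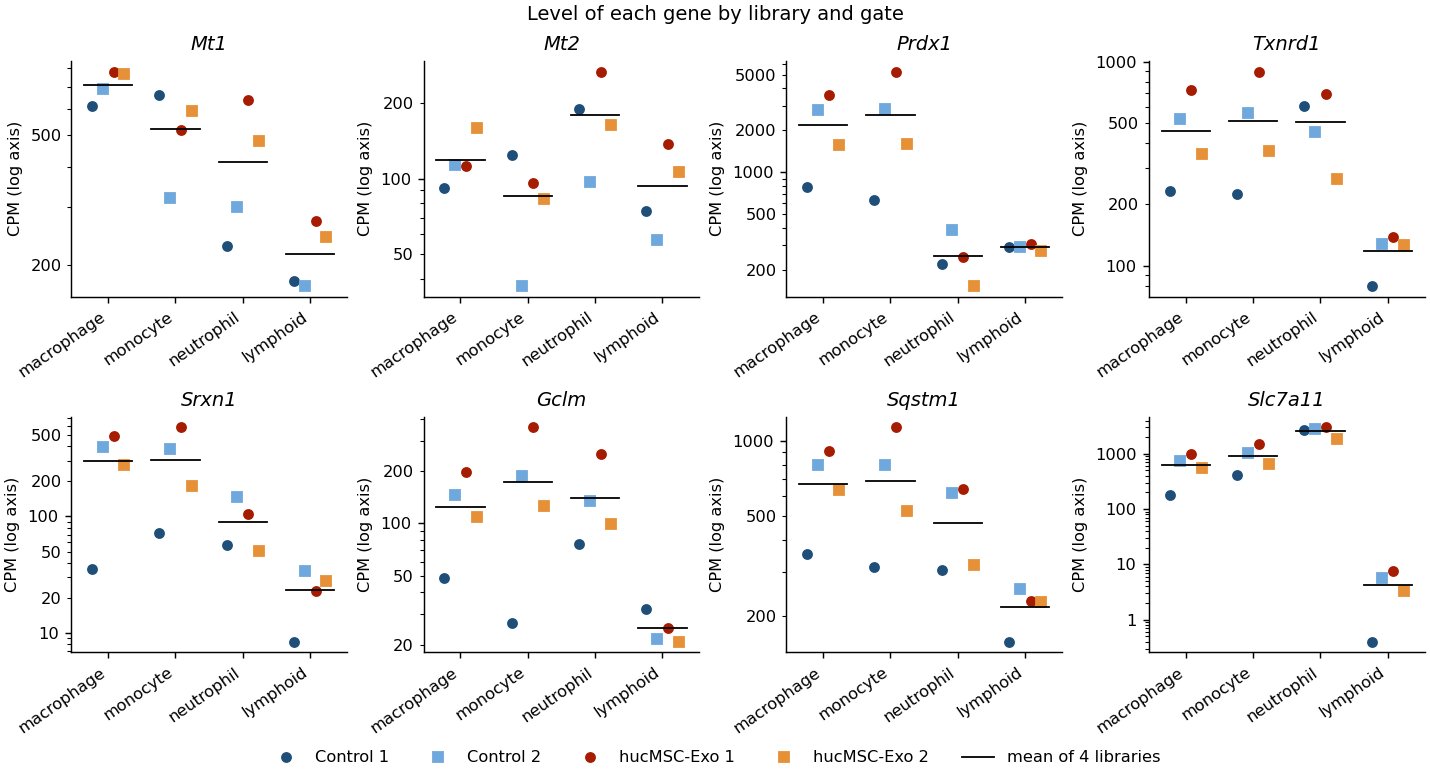
Level of each of the 8 genes (CPM, log axis, own scale per panel) in the 4 gates; each point is 1 library and the line is the mean of the 4. *Slc7a11* ranged from 2572 CPM in neutrophils to 4.22 CPM in lymphoid cells, and Control 1 was the lowest library for all 8 genes in macrophages and for 6 in monocytes.

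*Slc7a11* encodes xCT, the transporter that brings in cystine for glutathione synthesis in exchange for glutamate, and it showed the widest range. Neutrophils held 2706, 2768, 2997 and 1817 CPM. Monocytes held 406, 1053, 1533 and 659 CPM, and macrophages 179, 732, 1007 and 548 CPM. Every neutrophil value lay above every monocyte value, whereas monocytes and macrophages overlapped. Lymphoid cells held 0.40, 5.63, 7.59 and 3.25 CPM, from 1, 21, 22 and 12 UMIs. The mean in neutrophils, 2572 ± 519 CPM (SD, n = 4), was 2.82 times that in monocytes, and the mean in macrophages was 146 times that in lymphoid cells. The log2 difference from lymphoid cells was 9.91 ± 0.35 (SE) in neutrophils (edgeR adjusted p = 1.29e-15), 8.05 ± 0.33 in monocytes and 7.35 ± 0.32 in macrophages. These differences rest on few lymphoid UMIs: with stricter gates the lymphoid mean was 0.54 CPM in place of 4.22, with 2 libraries at 0, and the 3 differences were 12.37, 10.43 and 9.89. The macrophage difference ran from 5.42 with all deposited cells to 9.94 with Leiden clusters. Against neutrophils the difference was -2.56 ± 0.24 in macrophages (edgeR adjusted p = 1.5e-08) and -1.87 ± 0.24 in monocytes (edgeR adjusted p = 1.49e-06), and without Control 1 it was -2.22 and -1.63.

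The same order was seen cell by cell. To compare cells of unlike depth, each cell was thinned at random to 1000 UMIs and shallower cells were left out. At that depth a *Slc7a11* UMI was found in 75.5%, 80.7%, 87.9% and 63.7% of neutrophils, in 18.3% to 54.6% of monocytes and in 11.1% to 41.3% of macrophages. In lymphoid cells the share was 0.20% ± 0.13 (SD, n = 4), and at full depth 0.18% to 0.82%. At full depth 1 of 558, 4 of 749, 6 of 729 and 2 of 775 lymphoid cells held one, and this share serves as the background for the gene. The median UMIs per cell were lower in neutrophils than in lymphoid cells. Neutrophil markers summed to 129 to 416 CPM in macrophages, against at least 60974 CPM in neutrophils.

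*Prdx1*, a peroxiredoxin that removes hydrogen peroxide, marked the mononuclear cells. Macrophages held 783, 2785, 3554 and 1561 CPM and monocytes 636, 2847, 5244 and 1583 CPM. Neutrophils held only 218, 382, 247 and 153 CPM, and lymphoid cells 289, 289, 308 and 271 CPM. All macrophage and monocyte values lay above all others, and Control 1 was the lowest in both. The lymphoid libraries lay close together, at 289 ± 14.8 CPM (SD, n = 4), while macrophages stood at 2171 ± 1237 CPM. Against lymphoid cells the log2 difference was 2.84 ± 0.33 in macrophages and 3.095 ± 0.34 in monocytes (edgeR adjusted p = 1.51e-07 and 7.82e-08). In neutrophils it was 0.17 ± 0.34 (edgeR adjusted p = 0.673), although in CPM they lay below lymphoid cells in 3 of 4 libraries. Macrophages stood 2.67 ± 0.34 above neutrophils and monocytes 2.92 ± 0.35 (edgeR adjusted p = 1.25e-06 and 6.85e-07). At 1000 UMIs, 37.0% to 68.7% of macrophages and 8.37% to 14.3% of neutrophils held a *Prdx1* UMI.

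*Srxn1*, sulfiredoxin, restores peroxiredoxins that have been over-oxidised, and it followed the mononuclear pattern at lower counts. Macrophages held 35.1, 395, 491 and 278 CPM, and monocytes 72.8, 377, 579.5 and 181 CPM. Neutrophils held 57.0, 147, 105 and 50.5 CPM, and lymphoid cells 8.46, 34.3, 23.1 and 27.9 CPM. Macrophages overlapped with neutrophils through Control 1 alone, and no lymphoid value reached a neutrophil value. The log2 difference from lymphoid cells was 3.68 ± 0.30 in macrophages, 3.83 ± 0.31 in monocytes and 2.37 ± 0.34 in neutrophils. Macrophages and monocytes exceeded neutrophils by 1.31 ± 0.31 and 1.47 ± 0.32 (edgeR adjusted p = 0.00126 and 0.000718), and by 1.47 each without Control 1. Without the library block, both of these differences missed the threshold, at 1.33 and 1.44.

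*Txnrd1*, thioredoxin reductase 1, passes electrons from NADPH to thioredoxin, and it was high in all 3 myeloid gates. Macrophages held 232, 523, 729.6 and 353 CPM, monocytes 226, 563, 893 and 366 CPM, and neutrophils 608, 454, 693 and 267 CPM. Lymphoid cells held 79.7, 128, 139 and 126 CPM, below every myeloid value. The 3 myeloid gates, with means of 459 to 512 CPM, overlapped. The log2 difference from lymphoid cells was 2.09 ± 0.22 in macrophages, 2.30 ± 0.22 in monocytes and 2.51 ± 0.23 in neutrophils (edgeR adjusted p = 2.86e-08, 1.02e-08 and 4.78e-09).

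*Gclm*, the modifier subunit of the enzyme that starts glutathione synthesis, was likewise myeloid. Macrophages held 48.4, 145, 198 and 108 CPM, monocytes 26.8, 187, 358 and 126 CPM, and neutrophils 76.0, 135, 252 and 99.5 CPM. Lymphoid cells held 32.2, 21.5, 24.8 and 20.8 CPM. The monocyte value of Control 1, from 14 UMIs, lay within the lymphoid range, and macrophages and neutrophils did not overlap with it. The log2 difference from lymphoid cells was 2.38 ± 0.35 in macrophages, 2.85 ± 0.36 in monocytes and 2.88 ± 0.38 in neutrophils (edgeR adjusted p = 4.03e-06, 6.51e-07 and 1.42e-06).

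*Sqstm1* encodes p62, a receptor of selective autophagy that also binds KEAP1. Its levels were 351, 797, 906 and 636 CPM in macrophages, 314, 802, 1129.9 and 524 CPM in monocytes and 304, 618, 640.3 and 319 CPM in neutrophils. Lymphoid cells held 157, 255, 228 and 227 CPM, below all of these. Macrophages exceeded neutrophils in 4 of 4 libraries, though the ranges overlapped and the log2 difference of 0.22 ± 0.20 missed the threshold (edgeR adjusted p = 0.363). Against lymphoid cells the log2 differences were 1.79 ± 0.19 in macrophages, 1.87 ± 0.20 in monocytes and 1.57 ± 0.20 in neutrophils.

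*Mt1*, a metallothionein, was also higher in the 3 myeloid gates than in lymphoid cells. It held 612, 689, 779 and 769.7 CPM in macrophages, 661, 321, 517 and 591 CPM in monocytes, 228, 300.2, 640.3 and 480.1 CPM in neutrophils and 178, 173, 273 and 243 CPM in lymphoid cells. The macrophage libraries lay close together, at 712 ± 78.3 CPM (SD, n = 4), and Control 1 was the lowest of them but the highest in monocytes. The log2 difference from lymphoid cells was 1.99 ± 0.23 in macrophages, 1.61 ± 0.23 in monocytes and 1.49 ± 0.23 in neutrophils (edgeR adjusted p = 1.05e-07, 2.89e-06 and 1.09e-05). Macrophages and neutrophils differed by 0.50 ± 0.23 (edgeR adjusted p = 0.0696).

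Among the 4 gates *Mt2* had its highest mean in neutrophils, which held 189.9, 97.3, 268 and 164 CPM. Macrophages held 92.0, 114, 112 and 159.8 CPM, lymphoid cells 74.1, 56.9, 138 and 106 CPM, and monocytes 124, 37.4, 96.3 and 83.4 CPM. All 4 ranges overlapped. Neutrophils exceeded lymphoid cells by 1.44 ± 0.24 (edgeR adjusted p = 2.82e-05), and against neutrophils the difference was -1.28 ± 0.26 in monocytes (edgeR adjusted p = 0.000356) and -0.76 ± 0.24 in macrophages (edgeR adjusted p = 0.0117). Macrophages exceeded lymphoid cells by 0.68 ± 0.22 (edgeR adjusted p = 0.0111). For monocytes the difference from lymphoid cells was 0.16 ± 0.24 (edgeR adjusted p = 0.582), although in CPM they lay below lymphoid cells in 3 of 4 libraries. The smaller of these calls were fragile. The macrophage excess over lymphoid cells missed the threshold without Control 2 (0.47), without hucMSC-Exo 2 (0.58), with Leiden clusters in place of gates (0.48) and without the library block (0.58). The neutrophil excess over macrophages did so with stricter gates (-0.26), without hucMSC-Exo 1 (-0.58) and without hucMSC-Exo 2 (-0.66).

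The share of all genes called in the same direction gives the background. In macrophages 8 of 8 members were higher than in lymphoid cells, against 30.3% of the 9047 genes. In monocytes 7 of 8 were higher (all but *Mt2*), against 28.3%, and in neutrophils 7 of 8 (all but *Prdx1*), also against 28.3%. These 3 contrasts share the lymphoid sums and are not independent. Compared with neutrophils, *Prdx1* and *Srxn1* were higher in macrophages, against 30.1% of all genes, and in monocytes, against 24%. *Mt2* and *Slc7a11* were lower than in neutrophils, where 25.3% of all genes were lower in macrophages and 21% in monocytes, so that these counts of 2 in 8 lie near the background. Between macrophages and monocytes 15.9% of all genes were called and 1 member, *Slc7a11*, which was lower in macrophages, with a difference of -0.70 ± 0.23 (edgeR adjusted p = 0.0416). That call was lost under DESeq2 and 6 other settings and without Control 2, hucMSC-Exo 1 or hucMSC-Exo 2. The gate markers themselves are among the called genes.

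**Figure D2:**
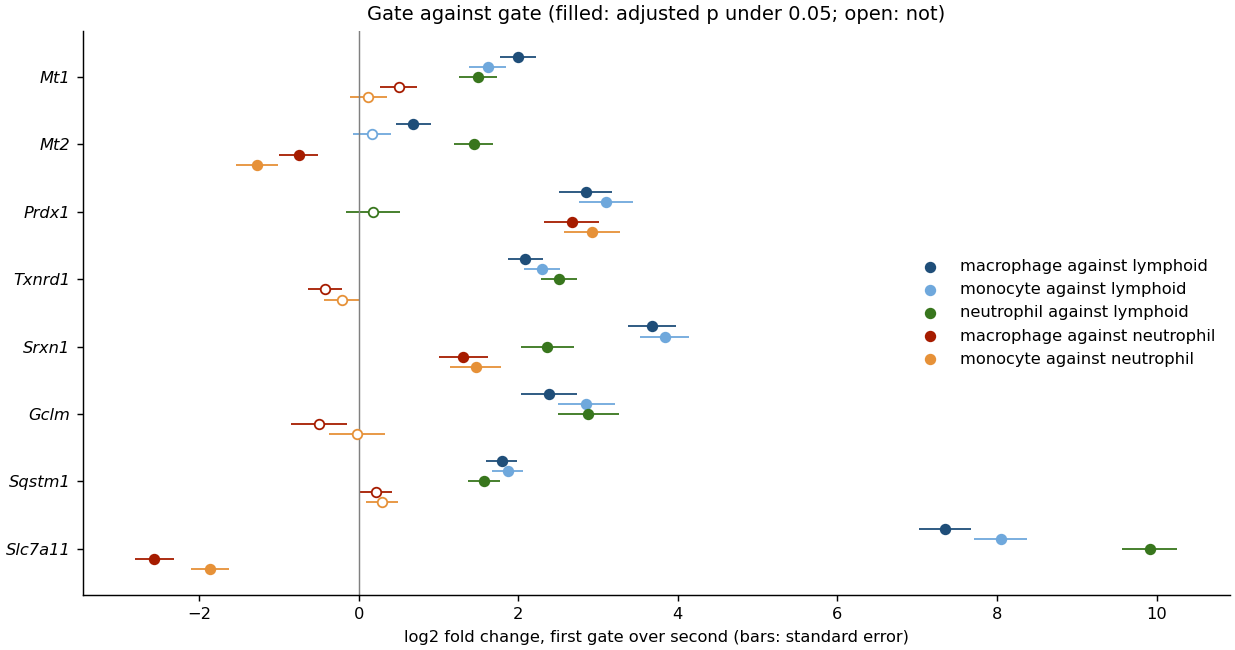
Log2 fold change of each gene between pairs of gates (points, with the standard error as bar), fitted over 4 libraries by 4 gates. All 8 macrophage points against lymphoid cells are filled (adjusted p under 0.05), whereas against neutrophils only *Mt2*, *Prdx1*, *Srxn1* and *Slc7a11* are.

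Other genes of the same pathways, from lists of 72 genes outside the members, were read beside them. Against lymphoid cells, 45 of 70 tested genes were higher in macrophages, 45 in monocytes and 46 in neutrophils, with 8, 8 and 9 lower. Of all 9047 genes, 30.3%, 28.3% and 28.3% were higher, and 2704, 2503 and 3135 genes were lower. The counts of the single lists below are to be read beside these shares. The list of NADPH supply and other NRF2 targets was higher in 11 of 12 tested genes in macrophages, 11 of 12 in monocytes and 10 of 12 in neutrophils, and lower in 1 each, with medians of 2.24, 2.50 and 2.66 on the log2 scale against -0.02, -0.04 and -0.24 over all genes. *Hmox1*, haem oxygenase 1, was its most changed member in macrophages, at 589, 2421, 3259 and 1776 CPM in macrophages and 4.83, 15.3, 40.4 and 4.87 CPM in lymphoid cells, a difference of 7.53 ± 0.36. It was 7.63 ± 0.36 higher in monocytes and 5.89 ± 0.34 higher in neutrophils. Its 4 libraries stood in the same order as the NRF2-linked members in macrophages.

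Genes that make or remove superoxide and peroxide were higher than in lymphoid cells in 8 of 8 cases in macrophages and monocytes and in 6 of 8 in neutrophils, where the other 2 were lower. *Cybb*, which encodes the catalytic subunit of the phagocyte NADPH oxidase, was 7.10 ± 0.32 higher in macrophages and 7.24 ± 0.32 higher in monocytes than in lymphoid cells, and 3.69 ± 0.31 and 3.83 ± 0.31 higher than in neutrophils. Catalase (*Cat*), which breaks down hydrogen peroxide, held 35.1, 45.0, 28.2 and 53.5 CPM in macrophages and 0, 3.56, 0 and 2.30 CPM in neutrophils.

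The glutathione list was higher than in lymphoid cells in 8 of 12 genes in each myeloid gate, and lower in 1 in macrophages. Of its members, glutathione reductase (*Gsr*) held 636, 679, 625 and 616 CPM in neutrophils and 27.5, 103, 123 and 57.9 CPM in macrophages, and the macrophage difference from monocytes was -1.63 ± 0.26. *Mgst1*, a membrane-bound glutathione transferase, was 4.65 ± 0.36 higher in monocytes than in lymphoid cells and its macrophage difference from monocytes was -1.35 ± 0.30. The thioredoxin list was mixed: 4 higher and 2 lower of 10 in macrophages, 5 and 2 in monocytes, 5 and 4 in neutrophils. *Msrb1*, which repairs oxidised methionine, was 5.29 ± 0.24 higher in neutrophils than in lymphoid cells, and *Txnip*, an inhibitor of thioredoxin, was lower in monocytes than in neutrophils, at -3.13 ± 0.28.

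Of the 6 genes that regulate NRF2 activity, 3 were higher in macrophages, 3 in monocytes and 5 in neutrophils than in lymphoid cells, and none was lower. Of the 8 autophagy partners of *Sqstm1*, 4, 5 and 7 were higher and none lower. *Optn*, an autophagy receptor, was lower than in neutrophils, with differences of -4.22 ± 0.37 in macrophages and -5.09 ± 0.45 in monocytes. *Osgin1*, an oxidative stress-induced growth inhibitor, was lower than in neutrophils too, at -3.86 ± 0.27 in macrophages and -4.25 ± 0.29 in monocytes, and 6.80 ± 0.30 higher in neutrophils than in lymphoid cells. Zinc handling genes were higher in 4 of 7 tested in macrophages, 3 in monocytes and 1 in neutrophils, with 1 lower in each. The glucocorticoid-responsive list had 3 higher and 3 lower of 7 in macrophages, 2 and 4 in monocytes and 4 and 1 in neutrophils. From that list, *Zbtb16* was lower in macrophages than in lymphoid cells (-4.06 ± 0.41), and *Tsc22d3* was 1.25 ± 0.18 higher in macrophages than in monocytes. *Cbr1*, a carbonyl reductase, was 1.52 ± 0.36 higher in macrophages than in monocytes. The dissociation list had 4 higher and 3 lower of 12 in macrophages.

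Between macrophages and monocytes, 7 of the 70 pathway genes were higher and 9 lower in macrophages. Against neutrophils, 21 were higher and 29 lower in macrophages and 21 higher and 23 lower in monocytes. Over all genes, 15.9% were called between macrophages and monocytes in either direction. Compared with neutrophils, 30.1% of all genes were higher and 25.3% lower in macrophages, and 24% higher and 21% lower in monocytes.

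Within the lymphoid gate the members were read in gamma delta T cells, alpha beta T cells, natural killer cells and group 2 innate lymphoid cells. These were told apart by the largest share of short marker lists, where a single detected marker was enough, so that the names are loose. The list for innate lymphoid cells was *Gata3*, *Il1rl1*, *Il13*, *Il5* and *Areg*. Mean levels of *Prdx1* ran from 255 CPM (natural killer cells) to 309 CPM (innate lymphoid cells), and those of *Txnrd1* from 81.3 to 156 CPM in the same order. *Mt1* in innate lymphoid cells held 77.7, 216, 340.0 and 795 CPM, from 10 to 218 UMIs. In alpha beta T cells it held 156, 146, 274 and 247 CPM. In gamma delta T cells *Mt1* held 199, 202, 257 and 177 CPM. *Slc7a11* had 0 UMIs in all 89 natural killer cells, which allows up to 16.3 to 58.0 CPM per library, and 0 to 11 per library in the other subsets.

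Macrophages were split into a wound type (*Arg1*, *Spp1* and *Gpnmb* among 8 markers, 121 cells) and a C1q type (*C1qa*, *Mrc1* and *Folr2* among 8 markers, 767 cells). None of the 8 members was called between them, against 6.97% of 5955 genes in either direction. *Prdx1* held 947, 3877, 3639 and 2901 CPM in wound macrophages and 750.0, 2205, 3577 and 1218 CPM in C1q macrophages. It was higher in the wound type in 4 of 4 libraries, by 0.58 ± 0.24 on the log2 scale (edgeR adjusted p = 0.162). The other 7 differences ran from -0.03 (*Srxn1*) to 0.53 (*Slc7a11*), and Control 1 held 6 wound macrophages. Of 65 pathway genes, 4 were higher and 3 lower in the wound type. Thioredoxin (*Txn1*) was 1.32 ± 0.22 higher and *Gsr* 1.09 ± 0.26 higher, whereas *Txnip* (-1.62 ± 0.31) and *Bach1* (-1.13 ± 0.25), a repressor of NRF2 targets, were lower. In the dissociation list 7 of 12 genes were lower in the wound type.

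Single cells were then asked whether the members appear together. This measure was chosen after the levels had been seen, and it is given without a test. Cells thinned to 1000 UMIs were divided into those with and without an *Srxn1* UMI. Control 1 had 2 and 4 such cells in macrophages and monocytes and was left out, so that the values below come from 3 libraries.

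**Figure D3:**
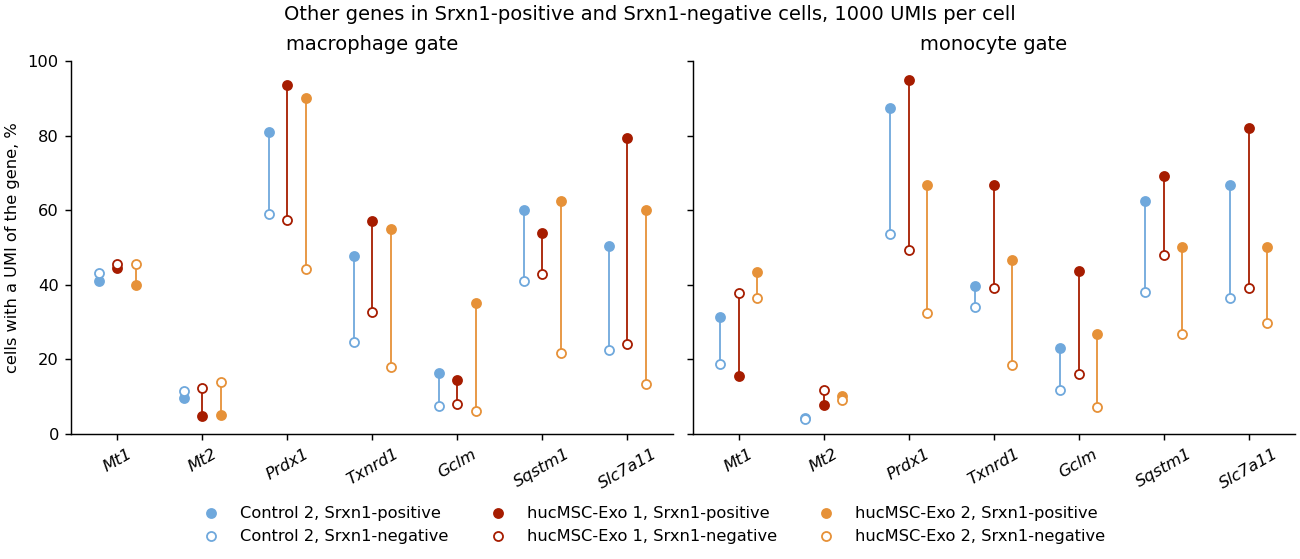
Percent of cells with a UMI of each gene in *Srxn1*-positive (filled) and *Srxn1*-negative (open) cells of 3 libraries, joined by a line, in macrophages and monocytes thinned to 1000 UMIs per cell. For *Prdx1*, *Txnrd1*, *Gclm*, *Sqstm1* and *Slc7a11* the filled point is the higher in every library, and for *Mt1* and *Mt2* in macrophages it is the lower.

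In macrophages, *Slc7a11* was found in 50.5%, 79.4% and 60.0% of *Srxn1*-positive cells (Control 2, hucMSC-Exo 1, hucMSC-Exo 2) and in 22.5%, 23.9% and 13.2% of *Srxn1*-negative cells. The difference was 43.4 ± 14.1 percentage points (SD, n = 3). For *Prdx1* it was 34.7 ± 11.9 points, for *Txnrd1* 28.2 ± 7.71, for *Sqstm1* 23.7 ± 15.4 and for *Gclm* 14.7 ± 12.5, each above 0 in 3 of 3 libraries. *Mt1* was found in 41.0%, 44.4% and 40.0% of *Srxn1*-positive and in 43.2%, 45.7% and 45.5% of *Srxn1*-negative macrophages, a difference of -2.99 ± 2.24 points. For *Mt2* the difference was -6.08 ± 3.66 points. Both were below 0 in 3 of 3 libraries. In monocytes, the differences were 38.0 ± 6.62 points for *Prdx1*, 31.2 ± 11.3 for *Slc7a11*, 23.0 ± 1.56 for *Sqstm1*, 20.4 ± 12.9 for *Txnrd1* and 19.4 ± 8.18 for *Gclm*, all above 0 in 3 of 3 libraries. For *Mt1* and *Mt2* they were -0.88 ± 18.8 and -0.85 ± 2.67 points, with 2 of 3 libraries above 0 for each. Without thinning, *Mt1* was more often found in *Srxn1*-positive macrophages, by 14.3 ± 6.13 points (n = 4), a difference that reversed at equal depth. In neutrophils, where 2 libraries gave a value, the 5 differences of the NRF2-linked members ran from 9.80 (*Prdx1*) to 21.6 points (*Sqstm1*). In lymphoid cells *Prdx1* differed by 3.44 ± 12.3 points (n = 3, above 0 in 2), and *Txnrd1*, *Gclm*, *Sqstm1* and *Slc7a11* by -0.06, -0.11, -1.90 and -0.27 points.

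*Mt1* was more often found in macrophages that held an *Mt2* UMI than in those without, which was not tested. *Mt1* had a UMI in 66.7%, 69.0%, 65.0% and 64.0% of *Mt2*-positive macrophages and in 33.3%, 39.4%, 43.1% and 41.8% of *Mt2*-negative ones, a difference of 26.8 ± 5.65 points (SD, n = 4) at 1000 UMIs, from 12 to 42 *Mt2*-positive cells. At full depth it was 10.7 ± 2.24 points. In lymphoid cells the thinned difference was 8.57 ± 1.61 points and above 0 in 4 of 4 libraries. In neutrophils it was 7.55 ± 7.44 points (n = 3, above 0 in 3, Control 1 being left out with 9 *Mt2*-positive cells), but at full depth -8.48 ± 18.7 points (n = 4, above 0 in 2). In monocytes it was 13.6 ± 19.99 points (n = 2, above 0 in 1).

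The balance of the 2 metallothioneins differed between gates. Of all *Mt1* and *Mt2* UMIs, *Mt2* made up 13.1%, 14.2%, 12.6% and 17.2% in macrophages and 15.9%, 10.5%, 15.7% and 12.4% in monocytes. In neutrophils the share was 45.5%, 24.5%, 29.5% and 25.4%, and in lymphoid cells 29.3%, 24.8%, 33.6% and 30.4%. Macrophages and monocytes lay below both other gates in 4 of 4 libraries, with no overlap. The mean difference from lymphoid cells was -15.3 ± 4.49 points (SD, n = 4) in macrophages and -15.9 ± 2.37 points in monocytes, each with an exact two-sided sign-flip permutation p = 0.125, the smallest that 4 libraries allow. From neutrophils it was -17.0 ± 10.9 and -17.6 ± 8.00 points, also with an exact permutation p = 0.125. With stricter gates the macrophage share was 17.8% ± 4.71 (SD, n = 4) and overlapped with that of neutrophils. The highest neutrophil share, in Control 1, rests on 20 *Mt2* and 24 *Mt1* UMIs, with an exact 95% interval of 30.4% to 61.2%. Such intervals cover counting error only. This measure too was chosen after the levels had been seen, and 6 pairs of gates were compared (exact p = 0.75 and 1 for the other 2).

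**Figure D4:**
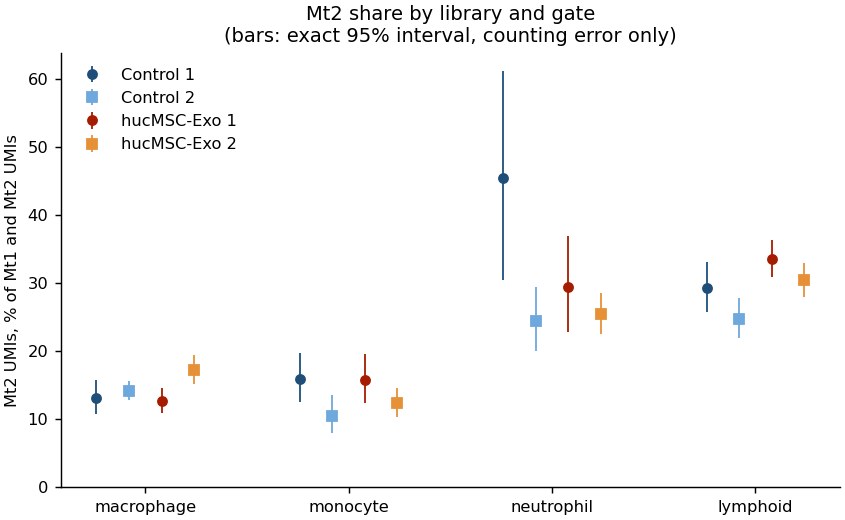
*Mt2* UMIs as a percent of *Mt1* and *Mt2* UMIs per library in each gate, with exact 95% binomial intervals that cover counting error only. The macrophage and monocyte points lie between 10.5% and 17.2%, and the neutrophil and lymphoid points between 24.5% and 45.5%.

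The second comparison asked whether exosome treatment went with a change of these genes. No member was called in any gate, and 0% of all genes were called in macrophages (7740 tested), 0% in monocytes (6529), 0% in neutrophils (4146) and 0% in lymphoid cells (10263), by edgeR and by DESeq2. At an unadjusted p under 0.05 edgeR had 60, 93, 66 and 275 genes, in the same order, and DESeq2 34, 50, 36 and 103. The interaction of treatment and gate was called in 0% of 9047 genes, with 175 at an unadjusted p under 0.05, and each member had an edgeR adjusted p = 1 for it. With 2 libraries against 2, an exact permutation test cannot go below p = 0.333. An exact test of the thinned shares of cells with a UMI reached that value in 5 of 32 gene and gate pairs, a count from which nothing is read.

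In CPM, *Mt1* lay higher in both libraries titled hucMSC-Exo in macrophages, neutrophils and lymphoid cells, and *Mt2* in lymphoid cells. Groups that separate by the titles would overlap if they followed the letters in the matrix names, and no fit was made by the letters. In lymphoid cells, *Mt2* was at 74.1 and 56.9 CPM in Control and at 138 and 106 CPM in hucMSC-Exo, a log2 difference of 1.00 ± 0.21 (unadjusted p = 0.0024, edgeR adjusted p = 0.996). Lymphoid *Mt1*, given above, differed by 0.64 ± 0.18 (edgeR unadjusted p = 0.00987, adjusted p = 0.996). At 1000 UMIs per cell, the shares of lymphoid cells with a UMI overlapped between the groups. For *Mt1* they were 16.6% and 10.7% in Control and 22.4% and 13.1% in hucMSC-Exo. For *Mt2* they were 8.29% and 5.76% against 13.3% and 8.16%. In gamma delta T cells the CPM of *Mt1* overlapped as well, whereas that of *Mt2* did not. In neutrophils, where Control held 228 and 300.2 CPM of *Mt1* and hucMSC-Exo 640.3 and 480.1, the difference was 1.17 ± 0.38 (edgeR unadjusted p = 0.0097, adjusted p = 0.999). Macrophage *Mt1* differed by 0.28 ± 0.32, and there too both treated libraries lay above both controls. Without Control 1 the differences were 1.11, 0.59, 0.90 and 0.23. Groups that do not overlap in this direction were found for 1 of 8 members in macrophages (*Mt1*) against 8.6% of all genes, 0 in monocytes against 8.33%, 1 in neutrophils (*Mt1*) against 11.4%, and 2 in lymphoid cells (*Mt1* and *Mt2*) against 9.67%. A count of 1 in 8 is near the share over all genes. No member lay below both controls in both treated libraries. Over all genes, 892 of 7740 did in macrophages and 1316 of 6529 in monocytes. In neutrophils 693 of 4146 did, and in lymphoid cells 2262 of 10263. Without the filter on low counts, 2 calls appeared: *Mt2* in lymphoid cells (edgeR adjusted p = 0.0268) and *Prdx1* in monocytes (1.09, edgeR adjusted p = 0.000169). The second does not come with separate groups: monocyte *Prdx1* was at 636 and 2847 CPM in Control and at 5244 and 1583 CPM in hucMSC-Exo. With the filter, its difference was 1.10 ± 0.75 (edgeR unadjusted p = 0.182).

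The other 6 members were ordered by library, not by group. In macrophages and in monocytes, each of *Prdx1*, *Txnrd1*, *Srxn1*, *Gclm*, *Sqstm1* and *Slc7a11* was lowest in Control 1, followed by hucMSC-Exo 2, Control 2 and hucMSC-Exo 1, in 12 of 12 cases. The dissociation list stood in the reverse order in both gates, as given above, and its part was not tested. The gates of a library come from 1 mouse, so that the 12 cases are not independent. In macrophages the log2 differences between hucMSC-Exo and Control were 0.60 ± 0.59 for *Prdx1*, 0.59 ± 0.49 for *Txnrd1*, 0.90 ± 0.80 for *Srxn1*, 0.71 ± 0.51 for *Gclm*, 0.48 ± 0.43 for *Sqstm1* and 0.84 ± 0.59 for *Slc7a11*. Without Control 1 they were -0.03, 0.14, 0.05, 0.17, 0.03 and 0.17. In monocytes the differences ran from 0.68 (*Sqstm1*) to 1.22 (*Gclm*), and without Control 1 from 0.14 (*Srxn1*) to 0.48 (*Gclm*).

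With Control 1 as the lone control, which is then assumed to vary like the treated pair, *Srxn1* (3.48), *Gclm* (1.70) and *Slc7a11* (2.15) were called in macrophages and *Prdx1* (2.57) and *Gclm* (3.29) in monocytes. In neutrophils the differences for the same 6 genes ran from -0.61 ± 0.55 (*Srxn1*) to 0.65 ± 0.53 (*Gclm*), and in lymphoid cells from -0.13 ± 0.25 (*Gclm*) to 0.73 ± 0.89 (*Slc7a11*). Without Control 1 they ran from -1.07 (*Srxn1*) to 0.28 (*Gclm*) in neutrophils and from -0.41 (*Srxn1*) to 0.09 (*Gclm*) in lymphoid cells.

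**Figure D5:**
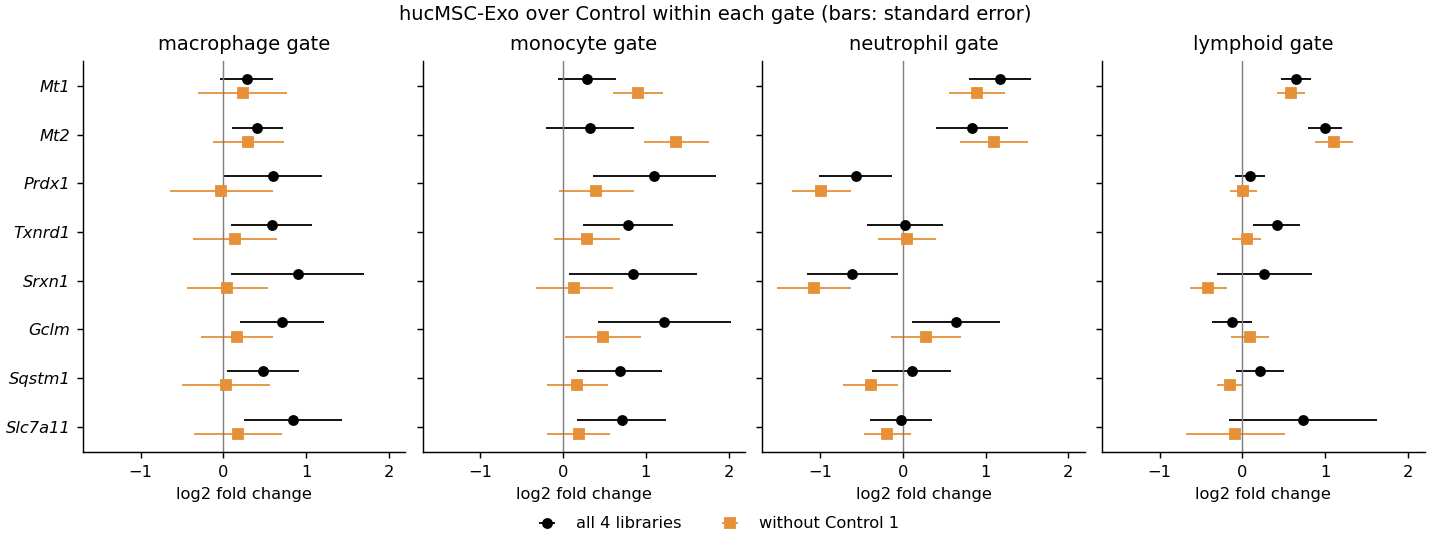
Log2 fold change of hucMSC-Exo over Control for each gene and gate (points, with the standard error as bar), with all 4 libraries (black) and without Control 1 (orange). The 6 NRF2-linked genes move toward 0 in macrophages and monocytes without Control 1, and lymphoid *Mt1* and *Mt2* stay at 0.59 and 1.11.

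None of the other pathway genes was called between the groups, among 67 tested in macrophages, 66 in monocytes, 53 in neutrophils and 67 in lymphoid cells.

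As a description, the genes whose log2 CPM ran most like each member over the 16 sums of 4 libraries and 4 gates were found among 9046 others. The sums of a library share its depth and its mouse. *Srxn1* and *Sqstm1* were each among the nearest of the other (Pearson r = 0.97). *Sqstm1* was nearest to the exporter *Abcc1* (r = 0.97), *Txnrd1* to *Pgd* (0.93), an NADPH-making enzyme, and *Gclm* to *Mafg* (0.94), a partner of NRF2. *Slc7a11* ran with *Clec4d*, *Ninj1* and *Lilr4b* (r = 0.99 each), *Prdx1* with *Rusc2* (0.97), *Tspan3* and *Lgals3*, *Mt1* with *Rnd3* (0.91), *Zfhx3* and *Dock1*, and *Mt2* with *Hspb1* (0.80) and *Htra1*. The remaining genes were *Ftl1* and *Mafg* for *Txnrd1*, *Abcc1* and *Nsf* for *Srxn1*, *Pgd* and *Ik* for *Gclm*, and *Mafg* for *Sqstm1*. *Mt1* and *Mt2* correlated with each other at r = 0.37. *Mt1* correlated with the other 6 members at 0.55 (*Gclm*) to 0.65 (*Sqstm1*), and *Mt2* at -0.36 (*Prdx1*) to 0.34 (*Slc7a11*).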

How the data were processed

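Skin cells from 4 mice were sequenced with 10x Genomics 3′ chemistry. The authors aligned the reads to the mouse genome mm10 and counted UMIs with Cell Ranger 6.1.2, and the deposited values are raw UMI counts per gene and cell, with 1 matrix per library. Following the study's limits, cells outside 200 to 3000 genes, or whose mitochondrial share exceeded 10%, were left out. Each cell went to the gate with the largest share of detected markers among 7 lists, with at least 3 detected, and the members are in none of the lists. Raw counts were summed per library and gate. They were fitted with edgeR 4.0.16 (TMM, filterByExpr, quasi-likelihood test, Benjamini-Hochberg threshold 0.05) in R 4.3.3, with the library as a block between gates and with group as the term within a gate. The study's rank-sum tests over cells were not repeated, since cells are not replicates.

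The members and all lists were chosen with earlier results of these data known. Named besides the members are, per comparison, up to 4 pathway genes with the largest change past the threshold, and the 3 genes most correlated with each member. Some genes that this rule selects are not reported here. Doublets stayed in, because the calls of Scrublet covered only 0.27% to 0.83% of cells per library, and the top 10% of doublet scores were left out as an alternative. Replicate numbers do not mark shared animals. Sequences came from RefSeq (GRCm38.p6) and positions from GENCODE (GRCm38). Alternatives were DESeq2 1.42.0, RLE scaling, no filter, stricter gates, Leiden clusters (scanpy 1.11.5), all deposited cells, only the gates compared, no block, no skin list (added after seeing the data), and leaving out each library. Statistics were tested on simulated data. Precision is limited by 2 mice per group and, in neutrophils of Control 1, by 51 cells with 105307 UMIs.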

Additional observations from a re-analysis of the deposited data

How the results depend on the processing

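Of 672 values of the members between gates under the alternatives, 637 kept their side of the threshold, 22 of them with a change of sign while neither value passed it, 19 lost the call, 15 gained one and 1 reversed: Mt2 between monocytes and lymphoid cells was -0.71 with Leiden clusters. Of 445 values between the groups 437 kept their side and 8 gained a call, and all 96 between wound and C1q macrophages kept their side, with 35 and 15 changes of sign among values that did not pass. With stricter gates, 5587 genes were tested in place of 9047, and the genes called were 3213 (macrophage against lymphoid), 3177 (macrophage against neutrophil), 2930 (monocyte against lymphoid), 2619 (monocyte against neutrophil), 3675 (neutrophil against lymphoid) and 428 (macrophage against monocyte). Between macrophages and monocytes, 886 genes were called with Leiden clusters, 927 without the library block, and 577 to 1651 with 1 library left out. Of the members 0 were called there with DESeq2, RLE, no library block or no skin list, 2 with only the 2 gates, and 0 to 4 with 1 library left out. Wound against C1q macrophages had 2084 genes with all deposited cells, 225 with DESeq2, 211 without the block, 122 with stricter gates and 181 to 458 with 1 library left out; Leiden clusters gave no value for it. Between hucMSC-Exo and Control, no filter gave 60 genes in lymphoid cells (1 member), 21 in macrophages, 33 in monocytes (1 member) and 7 in neutrophils. Leaving out 1 library gave 0 to 114 genes and 0 to 3 members in macrophages, 0 to 49 and 0 to 2 in monocytes and 0 to 12 genes in neutrophils. The replicate block called 1 gene in lymphoid cells and 0 elsewhere. For each gate, the log2 difference between replicates 1 and 2 in Control was correlated over genes with that in hucMSC-Exo. The values were -0.27, -0.16, -0.04 and 0.21 in macrophages, monocytes, neutrophils and lymphoid cells. With 1 such difference per group, they cannot tell whether the numbers pair the libraries. The crossed pairing, chosen after seeing the data, called 21 genes in macrophages (1 member), 4 in neutrophils and 0 elsewhere. The cause of these shifts was not tested. All 32 shares of cells with a UMI were lower after thinning, and shares at full depth follow depth. Sums of few UMIs, such as those of Slc7a11 in lymphoid cells, also limit precision.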

Other observations

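Outside the 4 gates the members were read in further populations, as values only. The basophil or mast cell gate (88 cells, 6 to 45 per library) held 949.7, 1656, 2306 and 688.5 CPM of *Sqstm1*, from 9, 226, 96 and 28 UMIs, with a mean of 1400.3 CPM against 217 to 693 CPM in the 4 gates. *Slc7a11* there was at 0, 219.9, 673 and 0 CPM, from 0, 30, 28 and 0 UMIs, and neutrophil markers summed to 2849 to 6049 CPM in that gate. The dendritic cell gate (75 cells, 11 to 26 per library) held 353, 1044, 370.4 and 2317 CPM of *Mt1*, and 106, 507, 703 and 674 CPM of *Slc7a11*. Its *Txnrd1* levels were 265, 583, 636 and 802 CPM. The mean of *Mt2* was 182 CPM in the dendritic cell gate and 149.9 CPM in the basophil or mast cell gate, against 179.7 CPM in neutrophils. Cells assigned to the skin list numbered 535, of which 407 held a *Ptprc* UMI. Their mean of *Mt2* was 174 CPM, with 85.9 to 150 CPM in Control and 190 to 269 CPM in hucMSC-Exo. *Mt1* overlapped there, at 501 to 539 CPM in Control and 535 to 563 CPM in hucMSC-Exo. None of these values was tested.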
